A study of Mus musculus with 7 samples.

Results

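The genes of the cyclin-dependent kinase inhibitors, 8 in number among 35498 annotated genes with values, were described in mouse bone marrow. They were chosen by symbol as the Cdkn genes Cdkn1a, Cdkn1b, Cdkn1c, Cdkn2a, Cdkn2b, Cdkn2c, Cdkn2d and Cdkn3, and the set was chosen because Cdkn1c was lower in Aim2 KO marrow than in WT marrow. That difference, and whether it passed a threshold, is therefore a description that supports nothing. Whole bone marrow of females, 5 to 6 months old, was profiled by strand-specific mRNA sequencing in 3 libraries of Aim2 KO mice and 4 of WT mice, with no further treatment labelled. Aim2 encodes a sensor of cytosolic DNA. The labels call the mutants null and do not say which part of the gene was deleted, how the mice were bred, or whether the libraries of a group are separate mice. The p-values thus speak of the spread between these libraries only. In bulk marrow, fewer cells of a type and less RNA per cell cannot be told apart.

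Cyclin-dependent kinases, switched on by cyclins, carry a cell into DNA replication and mitosis. The Cip/Kip inhibitors (Cdkn1a, Cdkn1b and Cdkn1c) bind several cyclin-kinase complexes, while the INK4 inhibitors (Cdkn2a to Cdkn2d) bind the kinases Cdk4 and Cdk6, which inactivate the retinoblastoma protein. In marrow the inhibitors are known for holding stem cells at rest and for ending division as blood cells mature. Cdkn1c is expressed from the maternal chromosome, in an imprinted domain that also holds Kcnq1 and the antisense RNA Kcnq1ot1.

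The libraries held 20777315 to 21027429 estimated reads in KO and 20300468 to 21099972 in WT. Reads of Aim2 numbered 157, 47 and 59 in KO, against 601, 573, 535 and 533 in WT, so each KO library was below each WT library. Haemoglobin genes took 11.3 to 13.7% of reads in KO and 13.8 to 19.9% in WT. KO library 3 stood apart from KO libraries 1 and 2, and WT library 1 from the other WT libraries. In KO library 3 the summed erythroid markers were at 9800 CPM, reads scaled to a common library size, against 17264 and 15780, and its summed skeletal muscle markers were at 7370 CPM, against 71.5 and 936. In WT library 1 haemoglobin genes took 19.9% of reads, against 13.8 to 15.6% in the other WT libraries, and the mitosis genes summed to 6108 CPM, against 4728 to 4861.

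Of the 8 genes, 7 had enough reads to be tested and Cdkn2b had not. None of the 6 tested genes other than Cdkn1c passed an adjusted p of 0.05 (quasi-likelihood test of edgeR, Benjamini-Hochberg adjustment over 14238 genes). Cdkn1c, for whose lower level the set was chosen, was past it, which is a description only. Of all tested genes 0.646% passed, 0.169% lower in KO. Cdkn1c was also the only one of the 7 whose KO and WT libraries did not overlap in CPM, as 12.9% of all tested genes did not, 5.94% with KO lower. The median log2 fold change of all tested genes was -0.01.

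Ranked by TPM, a read level corrected for transcript length, the INK4 gene Cdkn2d stood highest, at 129 ± 11.3 TPM (SD, n = 7 libraries). Cdkn3 followed at 76.7 ± 6.49 TPM, then Cdkn2c at 59.8 ± 4.76 TPM and Cdkn1b at 56.1 ± 9.15 TPM. Most of the Cdkn3 level was that of Cdkn3-202, annotated as a processed transcript and not as coding. Cdkn3-202 averaged 47.89 TPM in KO and 47.54 TPM in WT. The main coding transcript, Cdkn3-201, averaged 26.95 TPM in KO and 25.95 TPM in WT, below the gene levels of Cdkn2c and Cdkn1b. The place of Cdkn3 thus holds for all its transcripts together, not for the coding ones alone. Cdkn1c averaged 8.09 ± 4.05 TPM and Cdkn1a 7.38 ± 2.10 TPM, while Cdkn2a, at 0.749 TPM, and Cdkn2b, at 0.275 TPM, were the lowest. Neighbours in this order kept it in 7 of 7 libraries except at 2 places. Cdkn2c was above Cdkn1b in 4 of 7 libraries, and Cdkn1c was above Cdkn1a in 3 of 7, none of them KO.

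**Figure D1:**
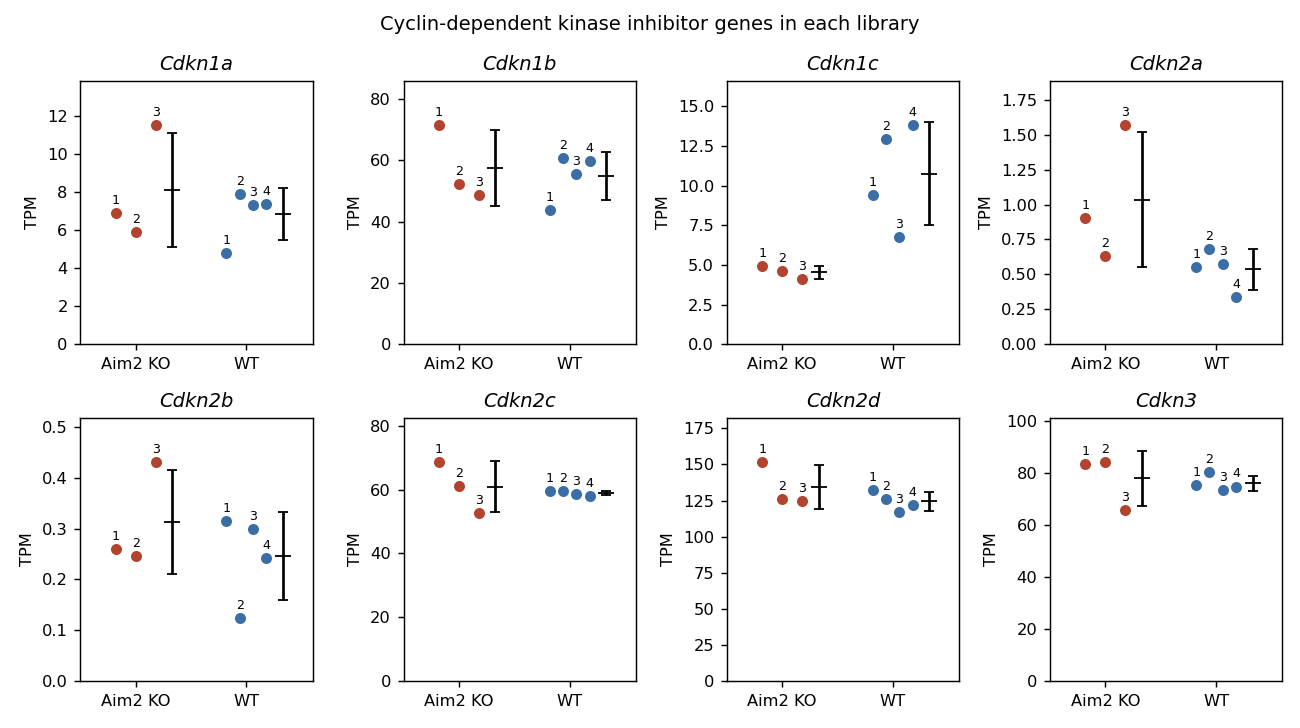
TPM of the 8 inhibitor genes, 1 panel each with its own linear axis from 0. Points are libraries, numbered within KO (left) and WT (right), and the bars are the mean and SD of each group. Cdkn1c lies between 4.09 and 4.91 TPM in KO and between 6.79 and 13.8 TPM in WT, while the points of the other 7 genes overlap between the groups.

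Cdkn1c, which encodes p57Kip2 and is known for its part in stem cell quiescence, had 86, 89 and 85 reads in KO (libraries 1 to 3) and 217, 313, 156 and 320 in WT (libraries 1 to 4). The 3 KO libraries were close to each other, and each was below the lowest WT library, library 3. Its level was 4.05 ± 0.22 CPM in KO (SD, n = 3) and 12.4 ± 3.66 CPM in WT (SD, n = 4), or a log2 fold change of -1.61 with an SE of 0.25. The gene lies on the minus strand of chr7:143458339-143461050 (GRCm38), where an antisense gene, Gm44732, is annotated across it on the other strand. On the TPM scale the difference was smaller, with 4.91, 4.62 and 4.09 TPM in KO and 9.43, 12.96, 6.79 and 13.8 TPM in WT. Log2 fold changes from TPM were -1.18 and -1.04 with pseudocounts of 0.1 and 1, or -1.30 and -1.15 after subtraction of the median of all genes on those scales. With 1 library left out the log2 fold change lay between -1.79 and -1.50, and Cdkn1c was past the threshold only without WT library 3.

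The lower level of Cdkn1c ran through its main transcripts. The transcript Cdkn1c-201, which took most of the gene's reads, had 57.7, 48.6 and 58.6 estimated reads in KO and 153, 232, 117 and 184 in WT. Cdkn1c-202, which spans nearly the same interval, had 9.94, 23.9 and 14.7 reads in KO and 33.3, 43.8, 20.2 and 90.9 in WT, so that KO library 2 lay above WT library 3. Cdkn1c-205, a shorter coding transcript, had 8.35, 9.01 and 7.10 reads in KO and 19.8, 30.5, 17.0 and 35.0 in WT, without overlap. The annotated retained-intron transcript Cdkn1c-204 did not share the pattern, with 7.90, 7.51 and 4.62 reads in KO and 5.84, 4.11, 1.81 and 3.60 in WT. Its share of the gene's reads was 9.18, 8.44 and 5.44% in KO and 2.69, 1.31, 1.16 and 1.13% in WT, a separation noticed after the values were seen and based on few reads. On the TPM scale Cdkn1c-204 averaged 1.21 of the gene's 4.54 TPM in KO and 0.66 of its 10.8 TPM in WT. The TPM of Cdkn1c in KO thus rests partly on these few reads. Of all 25 annotated transcripts of the 8 genes, 17 were tested and none passed an adjusted p of 0.05 with edgeR, against 0.0348% of all tested transcripts. Without adjustment, 4 of the 17 had a p under 0.05, against 6.51% of all tested transcripts: Cdkn1b-201 and, from the difference that chose the set, 3 transcripts of Cdkn1c. DESeq2 gave 1, also of Cdkn1c.

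**Figure D2:**
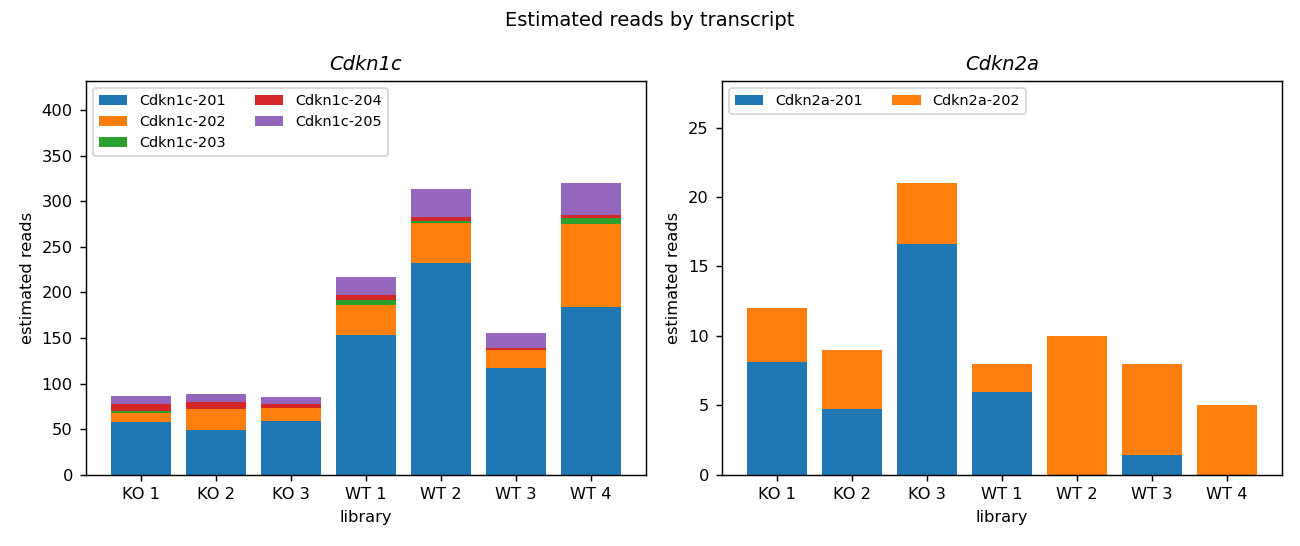
Estimated reads of the annotated transcripts of Cdkn1c (left panel) and Cdkn2a (right panel), stacked in 1 bar per library, the 3 KO libraries left of the 4 WT libraries. Cdkn1c-201 lies between 48.6 and 58.6 reads in KO and between 117 and 232 reads in WT, and Cdkn1c-204 between 4.62 and 7.90 reads in KO and between 1.81 and 5.84 in WT.

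Cdkn1b, which encodes p27Kip1, was the most abundant Cip/Kip gene and differed by less than the spread between libraries. It had 3105, 2338 and 2258 reads in KO and 2504, 2774, 2448 and 2780 in WT, and KO library 1 was the highest of all. The log2 fold change was -0.12 (SE 0.12; edgeR adjusted p = 0.779), with a 95% interval from -0.39 to 0.16. The gene lies on the plus strand of chr6:134920401-134925513. Its transcript Cdkn1b-201 took 23.0, 23.2 and 25.4% of the gene's reads in KO and 34.8, 29.0, 23.9 and 31.6% in WT, with 1 WT library inside the KO range.

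Cdkn1a, which encodes p21Cip1 and is a classic target of p53, was high in 1 KO library. It had 237, 216 and 414 reads in KO and 191, 281, 260 and 286 in WT, so that KO libraries 1 and 2 lay inside the WT range and KO library 3 above it. KO library 3 also had the highest summed skeletal muscle markers, at 7370 CPM, and the lowest erythroid sum, and their part in the level of Cdkn1a was not tested. The log2 fold change of 0.10 (SE 0.21; edgeR adjusted p = 0.912; 95% interval from -0.39 to 0.58) became -0.23 without KO library 3. The gene (plus strand, chr17:29090976-29100727) has 3 groups of annotated starts, and nearly all reads went to Cdkn1a-201, which begins at the middle one, with 91.8 to 95.5% in KO and 92.2 to 99.0% in WT. Cdkn1a-203, which begins further downstream, was given 13.3 to 16.6 reads in the KO libraries and 1.24 to 13.7 in the WT libraries. Of the transcripts that begin at the upstream start, Cdkn1a-202 had at most 5.30 reads in any library and Cdkn1a-204 had 0.

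The 250 bases before the middle and upstream Cdkn1a starts are shown from RefSeq on GRCm38.p6, to set the start in use beside the nearly silent one. Capitals mark matches, on either strand, to TATAA, to GGGCGG and to a pair of CATG cores with 6 bases between them, as in p53 response elements. The middle window (chr17:29093519-29093768, plus strand) held TATAA once and GGGCGG at 2 places, and the upstream window (chr17:29090729-29090978, plus strand) held TATAA once, on the other strand, and the spaced CATG pair once. Of 32851 RefSeq promoter windows of the same length, 22.8% held TATAA, 32.7% GGGCGG and 0.490% the spaced CATG pair. These matches describe letters only.
Cdkn1a middle start: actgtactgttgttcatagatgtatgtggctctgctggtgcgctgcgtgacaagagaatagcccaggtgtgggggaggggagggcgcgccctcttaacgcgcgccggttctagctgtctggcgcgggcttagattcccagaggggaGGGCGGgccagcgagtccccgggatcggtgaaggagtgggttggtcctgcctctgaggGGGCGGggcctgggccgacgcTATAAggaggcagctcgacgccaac
Cdkn1a upstream start: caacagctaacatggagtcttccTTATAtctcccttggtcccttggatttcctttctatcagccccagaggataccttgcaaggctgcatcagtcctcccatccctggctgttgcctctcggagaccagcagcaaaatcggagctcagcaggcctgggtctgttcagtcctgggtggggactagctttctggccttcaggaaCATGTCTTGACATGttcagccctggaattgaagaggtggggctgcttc

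Summed over the Cip/Kip genes, the level was 70.2 ± 11.5 TPM in KO (SD, n = 3) and 72.6 ± 11.3 TPM in WT (SD, n = 4). Cdkn1c made up 5.89 to 7.34% of this sum in KO and 9.76 to 17.0% in WT, and Cdkn1b 75.7 to 85.9% in KO and 73.9 to 79.8% in WT. On the TPM scale the summed level of the family thus differed by less than the spread between libraries. For the INK4 genes the sum was 197 ± 22.4 TPM in KO (SD, n = 3) and 184 ± 7.11 TPM in WT (SD, n = 4).

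Among the INK4 genes, Cdkn2d and Cdkn2c carried nearly all of the level, and neither passed the test. Cdkn2d, which encodes p19Ink4d and was the most abundant inhibitor gene, had 3535, 3142 and 3042 reads in KO and 3598, 3140, 2754 and 3048 in WT, with overlapping groups. Its log2 fold change was -0.04 (SE 0.13; edgeR adjusted p = 0.942), with a 95% interval from -0.34 to 0.25. Cdkn2c, which encodes p18Ink4c and is known to restrain division of stem and plasma cell precursors, had 2417, 2364 and 1815 reads in KO and 2233, 2222, 2109 and 2294 in WT. By reads, KO library 3 was the lowest and the other KO libraries were the highest. The log2 fold change was -0.09 (SE 0.12; edgeR adjusted p = 0.833), with a 95% interval from -0.37 to 0.19. Cdkn2d lies on the minus strand of chr9:21288410-21291407 and Cdkn2c on the minus strand of chr4:109660876-109667189.

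Cdkn2a, a marker of aged and senescent cells that encodes p16Ink4a and, from another first exon, the p53 activator p19Arf, had few reads in all libraries. There were 12, 9 and 21 reads in KO and 8, 10, 8 and 5 in WT, and KO libraries 1 and 3 lay above the WT range while KO library 2 lay inside it. The log2 fold change was 0.75 (SE 0.38, edgeR adjusted p = 0.511), with a 95% interval from -0.12 to 1.63. Without KO library 3, which stood apart in its skeletal muscle and erythroid markers, it was 0.36. The neighbouring Cdkn2b, which encodes p15Ink4b, had 6, 6 and 10 reads in KO and 8, 3, 7 and 6 in WT, which did not reach the filter on low counts. Its summed reads per depth gave a ratio of KO to WT of 1.15, with an exact 95% interval from 0.617 to 2.15 that covers counting error only. Cdkn2a lies on the minus strand of chr4:89274471-89294653 and Cdkn2b on the same strand of chr4:89306299-89311039, and since the genes are close paralogs their reads may be divided inexactly between them.

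The reads of Cdkn2a were assigned to its starts in unequal ways in the groups. Cdkn2a-201, which begins with the p16Ink4a exon, had 8.12, 4.76 and 16.6 estimated reads in KO and 5.96, 0, 1.45 and 0 in WT, and KO library 2 lay below WT library 1. Cdkn2a-202, which begins with the p19Arf exon, had 3.88, 4.24 and 4.35 reads in KO and 2.04, 10, 6.55 and 5.00 in WT. Per depth, the ratio of KO to WT was 5.39 for the summed reads of Cdkn2a-201, with an exact 95% interval from 2.32 to 14.5, and 0.629 for Cdkn2a-202, from 0.287 to 1.31. These intervals cover counting error only, and neither transcript had enough reads for the test. With no filter on low counts the log2 fold change of Cdkn2a-201 was 2.32 (SE 1.19; edgeR adjusted p = 0.772). Most of the sequence of the transcripts is shared, so how reads fell to each depends on the few that touch the first exons.

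The 250 bases before these starts, from RefSeq on GRCm38.p6, show how unlike the windows are. The p19Arf window (chr4:89294620-89294869, minus strand) held GGGCGG at 2 places, in capitals, and the p16Ink4a window (chr4:89282193-89282442, minus strand) held none of the 3 motifs, so it has no capitals.
Cdkn2a p16Ink4a start: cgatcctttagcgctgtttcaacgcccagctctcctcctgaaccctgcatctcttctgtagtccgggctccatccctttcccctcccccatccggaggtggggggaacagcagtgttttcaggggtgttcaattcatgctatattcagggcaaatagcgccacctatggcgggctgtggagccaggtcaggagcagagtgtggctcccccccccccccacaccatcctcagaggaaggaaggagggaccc
Cdkn2a p19Arf start: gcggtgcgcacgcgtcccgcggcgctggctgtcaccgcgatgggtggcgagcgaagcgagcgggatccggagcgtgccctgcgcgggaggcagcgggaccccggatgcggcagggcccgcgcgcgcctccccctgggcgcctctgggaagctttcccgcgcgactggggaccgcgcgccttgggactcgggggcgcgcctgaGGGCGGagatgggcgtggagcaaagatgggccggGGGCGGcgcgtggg

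Cdkn3, a phosphatase that removes the activating phosphate of Cdk2 and is transcribed in dividing cells, had 861, 944 and 701 reads in KO and 908, 874, 791 and 839 in WT. By reads, KO library 2 was the highest and KO library 3 the lowest of all 7. The log2 fold change was -0.11 (SE 0.13; edgeR adjusted p = 0.800), with a 95% interval from -0.42 to 0.19. The gene lies on the plus strand of chr14:46760541-46771669. In KO library 3, where Cdkn2c and Cdkn3 were lowest, the summed mitosis genes were at 3843 CPM, against 5240 and 5138 CPM in KO libraries 1 and 2 and 4728 to 6108 CPM in WT.

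**Figure D3:**
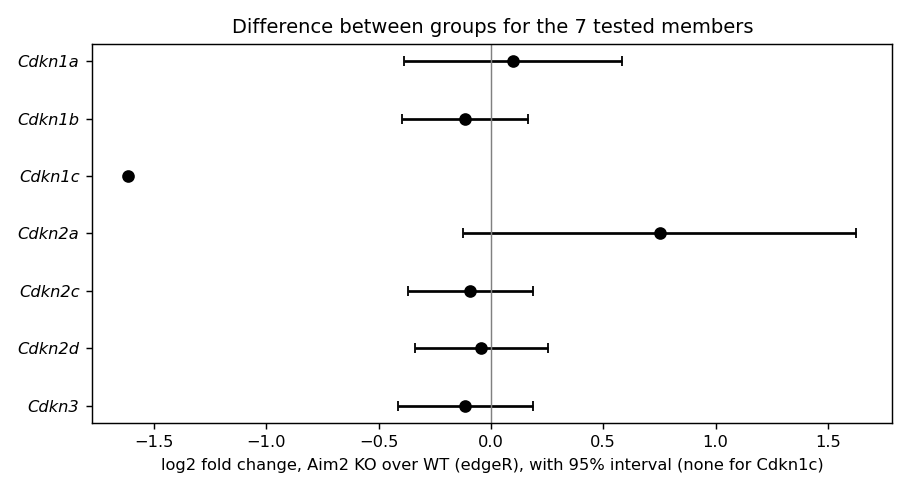
Log2 fold change, KO over WT, of the 7 tested inhibitor genes, with bars for the 95% interval from edgeR except for Cdkn1c, whose value chose the set. Cdkn1c lies at -1.61, and the intervals of the other 6 genes span 0.

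The genes around the inhibitors were taken as 11 lists with 169 genes, of which 157 were tested. None passed the test in either direction with edgeR, against 0.646% of all tested genes, and 12 had an unadjusted p under 0.05, 8 of them lower in KO, against 11.5% of all tested genes, 5.01% lower. DESeq2 called 4, against 2.85% of all genes by that test, and voom with sample weights 5, against 2.14%. Among the cyclin-dependent kinases, which the inhibitors bind, 0 of 7 passed and the median log2 fold change was -0.05. Cdk6, a partner of the D cyclins, averaged 99.7 CPM in KO and 93.3 CPM in WT, and Mnat1, an assembly factor of the kinase that activates the others, had a log2 fold change of 0.14.

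Of 8 tested cyclins none passed, with a median of -0.09. Ccnd2, a D cyclin that answers growth factors, had 68.1, 73.7 and 86.2 CPM in KO and 46.6, 57.7, 53.9 and 60.1 CPM in WT. The groups did not overlap, as for 12.9% of all tested genes. Its log2 fold change was 0.48 (SE 0.11, edgeR adjusted p = 0.135). Its adjusted p was 0.00758 with DESeq2, 0.0443 with voom and sample weights, and up to 0.449 over the 18 alternatives. Ccne2, an E cyclin of the entry into replication, was at -0.21 (edgeR adjusted p = 0.357), also without overlap.

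The targets further down showed small differences that did not pass the test. The 13 Rb and E2F genes had a median log2 fold change of 0.00, with -0.16 for E2f1 and 0.21 for E2f7. The 22 replication genes had a median of -0.05, and 19 of them were under 0, against 52.7% of all tested genes. Their sum was 4778 and 4792 CPM in KO libraries 1 and 2 and 3639 CPM in KO library 3, against 4361 to 5220 CPM in WT, so that only KO library 3 was below the WT range. Named by smallest p were Pold1, a subunit of a replicative polymerase, at -0.13 and Orc6, a subunit of the origin recognition complex, at -0.18. The 22 mitosis genes had a median of -0.08, and 17 of them were under 0. Cks2, which binds cyclin-dependent kinases, was at -0.24 (adjusted p = 0.418, edgeR), without overlap between the groups. Birc5, of the chromosomal passenger complex, was at -0.23. Without WT library 1, Orc6 was at -0.07 and Birc5 at -0.04.

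No listed regulator of the inhibitors passed the test with edgeR. Cbx7, a polycomb protein known for silencing Cdkn2a, had 40.2, 30.7 and 30.2 CPM in KO and 46.8, 46.2, 49.0 and 44.4 CPM in WT. The groups did not overlap, as for 12.9% of all tested genes. Its log2 fold change was -0.47 (SE 0.11, edgeR adjusted p = 0.129). It passed with DESeq2 (adjusted p = 0.00821), with voom and sample weights (adjusted p = 0.0291) and without KO library 1 (edgeR adjusted p = 0.0305). Its adjusted p was up to 0.615 over the 18 alternatives. Ezh2, the methyltransferase of the other polycomb complex, had a log2 fold change of -0.17, and 0 of 14 polycomb genes passed, with a median of -0.05. Klf2, a transcription factor of resting lymphocytes, averaged 45.0 CPM in KO libraries and 59.8 CPM in WT libraries, for a log2 fold change of -0.41 (edgeR adjusted p = 0.121). It passed with DESeq2 (adjusted p = 0.00795) and with voom and sample weights (adjusted p = 0.0265), and in no other alternative. Foxo1, which activates Cdkn1b among other genes, averaged 14.7 CPM in KO libraries and 20.5 CPM in WT libraries, for a log2 fold change of -0.48 (edgeR adjusted p = 0.216). It passed only with voom and sample weights (adjusted p = 0.0334). Klf2 and Foxo1 did not overlap between the groups in CPM either. They belong to 14 transcription regulators of quiescence with a median of -0.01.

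Of 18 tested p53 targets other than Cdkn1a none passed, with a median of -0.03. Sesn1, a stress-response gene, averaged 55.9 CPM in KO and 74.4 CPM in WT, for a log2 fold change of -0.41 (edgeR adjusted p = 0.11). It passed with DESeq2 (adjusted p = 0.00302) and with voom and sample weights (adjusted p = 0.0257), and in no other alternative. Btg2, an inhibitor of proliferation, had -0.20. Neither gene overlapped between the groups in CPM. Of 11 genes for the turnover of the inhibitors none passed, with a median of -0.07. Fbxl12, an F-box protein, had a log2 fold change of -0.20 and Cks1b, a cofactor of the ligase that degrades p27Kip1, -0.23.

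**Figure D4:**
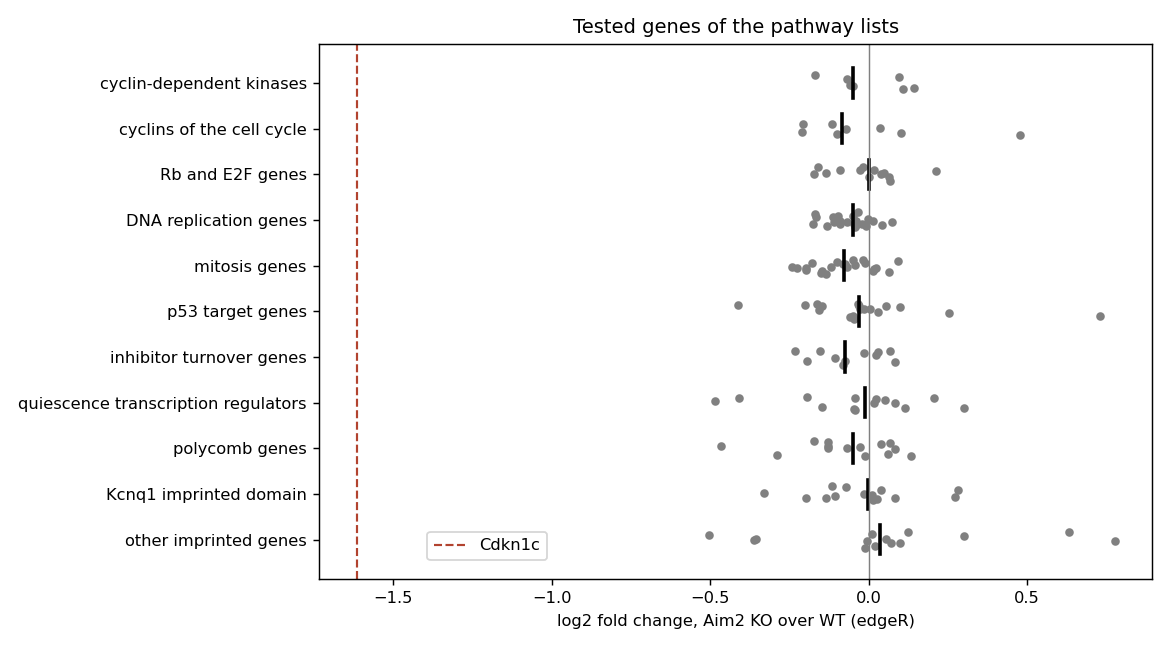
Log2 fold change, KO over WT, of each tested gene of the 11 lists, 1 point per gene, with the median of each list as a black mark and Cdkn1c, which is on no list, as a dashed line. Each list has points on both sides of 0, but 19 of the 22 replication genes and 17 of the 22 mitosis genes lie under 0. None passed an adjusted p of 0.05 with edgeR.

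None of the other tested genes of the imprinted domain of Cdkn1c passed the test. Of 18 listed genes 17 had values, Kcnq1ot1 was not analysed here, and 14 were tested, with a median log2 fold change of -0.00. Slc22a18, an imprinted transporter gene and the next listed gene on the chromosome, had 1.03, 0.82 and 1.00 CPM in KO and 0.96, 0.73, 0.92 and 1.15 CPM in WT, and a log2 fold change of 0.01 (SE 0.24; edgeR adjusted p = 0.991). Phlda2, also imprinted, was likewise at 0.01, with fewer than 1 CPM in every library, so only large differences were detectable for it. Kcnq1, a potassium channel gene, was at 0.27 (SE 0.35). Its reads may be mixed with those of other genes annotated across it, which lie on the same strand and on the other strand. The domain's summed level was 526, 541 and 512 CPM in KO and 562, 547, 544 and 554 CPM in WT, without overlap. Nap1l4, a histone chaperone gene, did not overlap either, with 185, 193 and 180.2 CPM in KO and 194, 202, 197 and 206 CPM in WT. Of single tested genes 12.9% did not overlap, 5.94% with KO lower. Most of the domain's sum came from Nap1l4, Cd81, Tspan32 and Cars, with means of 186, 98.2, 95.4 and 60.9 CPM in KO libraries. Phlda2, Slc22a18 and Kcnq1 each averaged below 1 CPM and added little to it. Cd81 was at -0.02, Tssc4 at -0.20, Tspan32 at -0.07, Nap1l4 at -0.11, Cars at 0.03, Osbpl5 at -0.12 and Dhcr7 at 0.04. The decoy receptor genes Tnfrsf22 and Tnfrsf23, which resemble each other, were at -0.13 and 0.28, and Tnfrsf26 at 0.08. Nadsyn1, an NAD synthetase gene, was the lowest at -0.33 (SE 0.14; edgeR adjusted p = 0.426). Tssc4 overlaps Trpm5 on the other strand.

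**Figure D5:**
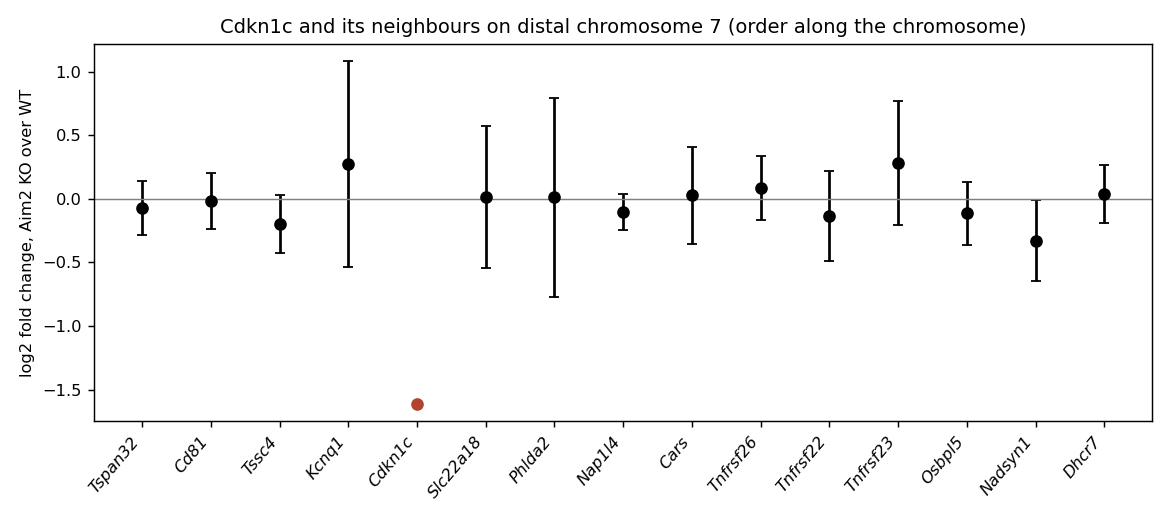
Log2 fold change, KO over WT, of Cdkn1c and the tested genes of its domain on chromosome 7, in the order of their starts, with bars for the 95% interval except for Cdkn1c. Cdkn1c lies at -1.61 and the 14 other genes between -0.33 and 0.28.

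Other imprinted genes outside the domain were likewise not past the threshold, 0 of 14 tested, with a median log2 fold change of 0.04. Ndn, a growth-suppressing gene expressed from the paternal allele, was at 0.78 (SE 0.29, edgeR adjusted p = 0.361) from about 1 CPM, without overlap between the groups. Dcn, a matrix proteoglycan gene, was at -0.35 (SE 0.13, edgeR adjusted p = 0.369), with overlap. H19 and Meg3 were not analysed here.

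The genes whose levels over the 7 libraries were most like those of Cdkn1c were found by the root mean square difference of log2(CPM + 0.5) after each gene's WT mean was subtracted, among 13209 other genes that averaged 1 CPM or more. The nearest was A2m, a broad inhibitor of proteases, at 0.19, with 35, 59 and 35 reads in KO and 113, 168, 69 and 153 in WT. As with Cdkn1c, WT library 3 was the lowest WT library and above all KO libraries. Plppr5, a membrane protein gene of the phospholipid phosphatase family, followed at 0.25, Nsg2, a vesicle protein gene best known from neurons, at 0.26, Awat1, an acyltransferase gene, at 0.31 and H2-M2, a class I histocompatibility gene, at 0.33. Plppr5 had only 9, 5 and 4 reads in KO and H2-M2 10, 11 and 5, levels at which the added 0.5 shrinks log2 differences. Their edgeR log2 fold changes were -2.47 and -2.24, against -1.61 for Cdkn1c. Since likeness to a gene chosen for its difference fixes the direction of these nearest genes, the lower KO levels of all of them are a description.

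The summed markers of several cell types differed between the groups beside Cdkn1c, and their part in its lower level was not tested. The 15 haematopoietic stem cell markers, of cells known to express Cdkn1c, summed to 234 to 291 CPM in KO and 230.0 to 275 CPM in WT, with none past the threshold and a median log2 fold change of 0.05. The 12 stromal cell markers summed to 4184 to 4339 CPM in KO and 4440 to 6880 CPM in WT, with only 5 of the 12 under 0 and a median log2 fold change of 0.03. The collagen genes Col1a1, with means of 1106 CPM in KO libraries and 1868 CPM in WT libraries, and Col1a2, with 1080.0 CPM in KO libraries and 1749 CPM in WT libraries, had the lowest log2 fold changes of the 12. The 10 endothelial markers summed to 450 to 478 CPM in KO and 360 to 391 CPM in WT. The 13 B lineage markers summed to 183 to 288 CPM in KO and 355 to 595 CPM in WT, all with a log2 fold change under 0 and none past the threshold. Plasma cell markers summed to 695 to 867 CPM in KO and 432 to 659 CPM in WT, and mature neutrophil markers to 16474 to 17453 CPM in KO and 12152 to 15902 CPM in WT. The stromal, endothelial, B lineage, plasma cell and mature neutrophil sums did not overlap between the groups, and the sums of the other marker lists did. Of single tested genes 12.9% did not overlap, and no such share was computed for sums of other genes. The stromal sum includes the 2 collagen genes, while the median of its list was near 0. Erythroid markers summed to 9800 to 17264 CPM in KO and 13857 to 18138 CPM in WT and macrophage markers to 1279 to 1599 CPM in KO and 1069 to 1759 CPM in WT, with overlap. Of 148 tested genes on the 14 marker lists, 2 passed the test, against 0.646% of all tested genes. They were the monocyte marker Cd300e, higher in KO, and the dendritic cell marker Cd209a, lower in KO. Of the 9 tested dendritic cell markers only 3 were under 0, with a median log2 fold change of 0.06. The dendritic list summed to 165 to 217 CPM in KO and 167 to 185 CPM in WT, with overlap. Without adjustment, the edgeR p was under 0.05 for 45 of the 148, against 11.5% of all tested genes. Among them were 9 of 13 B lineage, 7 of 10 endothelial, 6 of 8 plasma cell and 6 of 10 Ly6C-low monocyte markers. No haematopoietic stem cell, neutrophil precursor or skeletal muscle marker had such a p, and 3 of 18 erythroid markers had. The lists were chosen with earlier results of these data known, and markers of 1 cell type are not independent. This share is therefore a description. No listed marker was at 0 over all libraries.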

How the data were processed

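Strand-specific mRNA libraries of mouse bone marrow were made for DNBSEQ, per the labels' protocols. FastQC 0.11.9, Salmon 1.7.0, DESeq2 and the build GRCm38.p6 stand in the submitters' processing notes. Salmon's options and the annotation release are not given in the sources used here. Deposited files give for each of 116546 transcripts a length and an effective length, an expected count (estimated reads) that the authors deposited without normalization, and a deposited TPM value, which corrects for effective length and sums to the same total in each library.

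Genes were assigned to transcripts by identifier without version, from GENCODE M21. A total of 569 had no gene and were left out, at most 0.0662% of a library's reads. Expected counts were summed per gene and rounded. Genes were filtered with filterByExpr, scaled with TMM and tested with edgeR 4.0.16 (R 4.3.3) by its quasi-likelihood test, two-sided, KO over WT, on all 7 libraries without covariates. The steps were tested on simulated counts. SE is the size of the log2 fold change over the square root of F. CPM uses TMM-scaled library sizes. Summed reads of few-read items were compared by exact binomial intervals. No libraries of 1 group agreed within sampling noise.

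Named were all members, per list the 2 genes with the smallest p, the tested genes of the Kcnq1 domain and the 5 profiles nearest to Cdkn1c. The members and lists were chosen with earlier results of these data known. Alternatives were other scaling, DESeq2 1.42.0, limma 3.58.1 (voom with sample weights, and log2 TPM), other filters, a length offset, a replicate block and leaving out each library.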

Additional observations from a re-analysis of the deposited data

Results flagged for a closer look

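In 3 of 46 groups of 4 WT libraries tested for a library far from the others, 1 library lay beyond the 95% limit of Dixon's test, and chance gives about 1 in 20. Cdkn1b was at 119 CPM in WT library 3, below 133 to 134 CPM in the other WT libraries. Orc6 was at 88.4 CPM in WT library 1, above 66.5 to 69.9 CPM in the other WT libraries. Tnfrsf22 was at 3.48 CPM in WT library 1, below 4.45 to 4.46 CPM in the other WT libraries.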

How the results depend on the processing

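The count of inhibitor genes past the threshold was 1, Cdkn1c, under RLE scaling, scaling without haemoglobin, immunoglobulin and mitochondrial genes, DESeq2 and both other filters. It was 0 with voom and sample weights, the length offset, each fit on TPM and the replicate block, and 0 to 1 with 1 library left out, at 1 only without WT library 3. Over these 18 alternatives the log2 fold change of Cdkn1c stayed between -1.79 and -1.04. The listed pathway genes past the threshold numbered 4 with DESeq2 (Ccnd2, Sesn1, Klf2 and Cbx7), 5 with voom (also Foxo1), where 2.85% and 2.14% of all genes were called, 0 to 1 with 1 library left out, and 0 otherwise. Of the transcripts DESeq2 gave 1 in place of 0. By the sample numbers in the titles, used throughout, deviations of same-numbered libraries correlated at 0.12, -0.04 and -0.27. Those of differently numbered libraries correlated at -0.23 to 0.26. With deviations from means of so few libraries, these values cannot decide whether the numbers pair the libraries. The deposited files number the WT libraries otherwise, and by that numbering only 2 pairs share a number, at 0.12 and 0.23. With the number as a block the log2 fold change of Cdkn1c was -1.45 and that of Cd81 turned to 0.0322.

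Directions that turned were all of differences short of the threshold. With voom, Cdkn1a was at -0.204, Cdkn2c at 0.0371, Cdkn2d at 0.0721, Cdkn3 at 0.0623 and Slc22a18 at -0.0338. On log2(TPM + 0.1), which raised the median of all genes by 0.139, Cdkn1b was at 0.0551, Cdkn2c at 0.0398, Cdkn2d at 0.106, Cdkn3 at 0.0278, Ccne2 at 0.0108, Nap1l4 at 0.0419, Tspan32 at 0.0142 and Cd81 at 0.126. On log2(TPM + 1), which raised that median by 0.114 with a filter and by 0.0658 without, Cdkn1b was at 0.0543, Cdkn2c at 0.0393, Cdkn2d at 0.105, Cdkn3 at 0.0276, Ccne2 at 0.0104, Nap1l4 at 0.0414, Tspan32 at 0.0140 and Cd81 at 0.124. Relative to the median on these 3 TPM scales, Cdkn1b, Cdkn2c and Cdkn3 were under 0, and Cdkn2d was at -0.02, 0.00 and 0.05. With the length offset Cars was at -0.166. With 1 library left out the ranges were -0.228 to 0.252 for Cdkn1a, -0.167 to 0.0424 for Cdkn2c, -0.113 to 0.0760 for Cdkn2d, -0.232 to 0.0122 for Cdkn3, -0.0574 to 0.0966 for Dhcr7, -0.0876 to 0.0271 for Cd81, -0.0611 to 0.184 for Cars, -0.0914 to 0.125 for Slc22a18 and -0.175 to 0.101 for Phlda2. The cause was not tested. At this depth, Cdkn2a and Cdkn2b had too few reads to show any but large differences.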
